A study of Mus musculus with 72 samples.

Results

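Lung tumours of EGFR DEL19 transgenic mice that had been given the CMV-siRE circuit were set against lung tumours of mice that had been given the CMV-scrR circuit. The members were chosen by group label, 4 CMV-siRE and 4 CMV-scrR tumour libraries, 8 of the 72 RNA sequencing libraries in the series. All 8 libraries come from mice with the same transgene, which had received doxycycline for 25 days before treatment. The mice were then injected intravenously with a circuit at 10 mg/kg every 2 days, 7 injections in all, and the libraries are labelled day 14. A circuit is a DNA construct with a CMV promoter. In CMV-siRE the construct encodes an siRNA aimed at EGFR, while in CMV-scrR, the control, it encodes a scrambled RNA, so both groups received DNA that encodes a small RNA. The small RNAs themselves were not analysed here. Neither the promoter that drives the transgene nor the age of the mice is stated in the labels. The question is which transcripts of the tumour, the human EGFR transcript first, differ between an siRNA aimed at EGFR and a scrambled RNA.

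EGFR is a receptor tyrosine kinase that, once bound by ligands such as TGF-alpha, amphiregulin and epiregulin, pairs with itself or with ERBB2 and ERBB3 and signals through RAS and ERK and through PI3K and AKT. The exon 19 deletion keeps the kinase active without ligand and is a driver of lung adenocarcinoma, a tumour that often keeps features of the surfactant-making alveolar type 2 cell. An siRNA is cut from a longer RNA by Dicer, is loaded onto an Argonaute protein and directs the cleavage of a matching transcript. The circuits are meant to let the body's own cells make that RNA and pack it into small extracellular vesicles, which carry it through the blood.

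The libraries differed widely in make-up within both groups. Mitochondrially encoded mRNAs took 45.0%, 61.3%, 73.1% and 61.0% of the column total in CMV-siRE libraries 1 to 4, against 69.8%, 63.1%, 70.1% and 71.4% in CMV-scrR libraries 1 to 4. The means were 60.1% ± 11.6 with CMV-siRE and 68.6% ± 3.77 with CMV-scrR (SD, n = 4 each), the groups overlapped, and the difference of -8.52 percentage points did not pass (two-sided exact permutation p = 0.257, with 0.0286 the smallest p that 4 against 4 allows). Leaving out CMV-siRE 1 moved that difference to -3.48. The column totals ran between 12.2 and 43.81 M scaled read counts with CMV-siRE and between 21.16 and 37.08 M with CMV-scrR. A further 15 nuclear genes share an exact run of 50 bases or more with a mitochondrial transcript, and they held 14.0% to 46.5% of the non-mitochondrial total with CMV-siRE and 25.3% to 46.0% with CMV-scrR. The 3 copies printed here are shown because reads from a mitochondrial gene cannot be told from reads of its copy, so a total without the 13 mitochondrial genes can still hold mitochondrial reads. They lie next to each other on chromosome 1 of GRCm38, on the minus strand (Gm28437 at chr1:24613189-24613971, Gm10925 at chr1:24613974-24614651, Gm28661 at chr1:24614885-24615565), and all 783, 678 and 681 bases of their GENCODE M21 transcripts are identical to the mitochondrial gene named with them. The opening 60 bases are given, in lower case throughout because no base differs between copy and original.
Gm28661 and mt-Co2: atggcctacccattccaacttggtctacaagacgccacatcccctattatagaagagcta
Gm28437 and mt-Co3: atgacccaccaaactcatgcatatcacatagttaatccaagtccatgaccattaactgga
Gm10925 and mt-Atp6: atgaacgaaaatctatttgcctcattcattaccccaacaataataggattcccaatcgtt

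Gm28661 alone had 652183, 1397501, 3739168 and 1507682 in the CMV-siRE libraries and 2007407, 1333709, 3171051 and 3177410 in the CMV-scrR libraries. Like the mitochondrial share, it was lowest in CMV-siRE 1 and highest in CMV-siRE 3. With these copies removed too, the total over the other nuclear genes was 5.1 to 6.29 M with CMV-siRE and 5.27 to 6.11 M with CMV-scrR, a nearly level total. The deposited scaling is close to a scaling on nuclear genes. The median log2 difference of all 14044 genes tested was 0.0 as deposited, 0.01 by the nuclear total and 0.18 by the non-mitochondrial total, so differences under the non-mitochondrial total are to be read against 0.18.

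**Figure D1:**
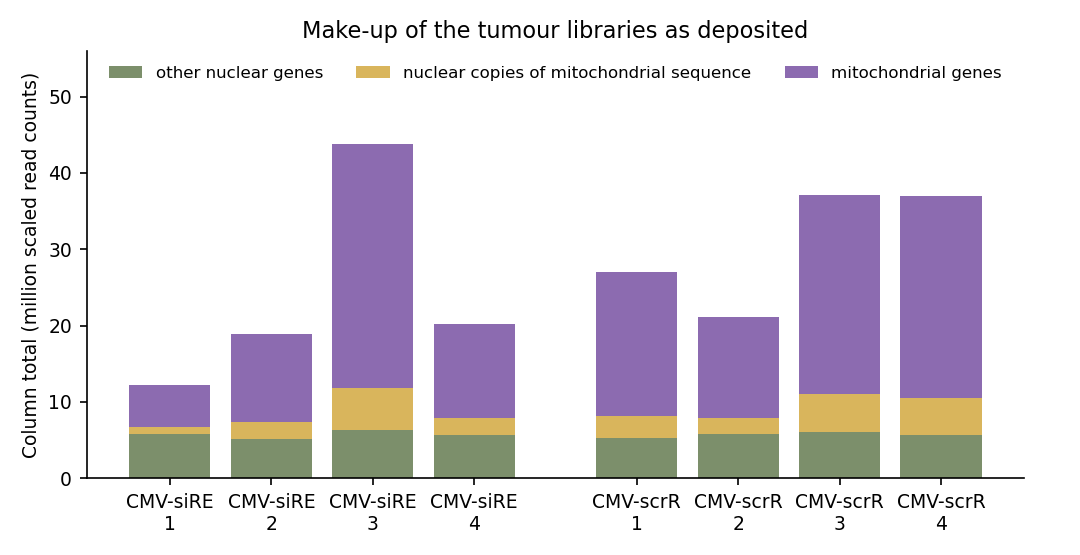
Column total of each tumour library in M scaled read counts, CMV-siRE 1 to 4 and then CMV-scrR 1 to 4, split into mitochondrial genes (purple), the 15 nuclear genes that share sequence with them (yellow) and all other nuclear genes (green). The green parts lie between 5.1 and 6.29 M in all 8 libraries, while the totals lie between 12.2 and 43.81 M.

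CMV-siRE 1 stood apart from its own group. Its Spearman correlation over the genes tested was 0.856 to 0.894 with the other 3 CMV-siRE libraries, 0.742 to 0.837 with the CMV-scrR libraries, and 0.938 to 0.958 with the 4 tumour libraries of the third circuit of the series, CMV-GE11-siRE. The other CMV-siRE libraries reached 0.91 to 0.934 within their group. CMV-siRE 2 and 3 reached higher values with CMV-scrR libraries, 0.941 and 0.931, beside 0.934 and 0.91 within their group. CMV-siRE 4 reached 0.906 with CMV-scrR and 0.934 within its group. CMV-siRE 1 also had the lowest mitochondrial share and the most genes detected, 18005, against 15523 to 17500 in the other CMV-siRE libraries and 15880 to 17077 in CMV-scrR. The library labelled CMV-siRE 1 was thus closer to another circuit's libraries than to its own group, and whether its label is right was not tested. It was kept under its label, so each CMV-siRE mean and call includes it, and results are also given without it. The Y-linked gene Ddx3y was at 0.879, 400, 5.79 and 330 in CMV-siRE 1 to 4 and at 9.59, 418, 2.69 and 0 in CMV-scrR 1 to 4, high in 2 libraries of CMV-siRE and in 1 of CMV-scrR, so the sexes were mixed in unequal numbers. The labels do not say that each library of a group came from a separate animal. With Ddx3y high in some libraries and low in others of each group, neither group came from a single animal. How many animals each group holds is not known, so a p-value here speaks only of the spread among libraries, which may be technical in part. In bulk tissue, fewer cells of a type and less RNA per cell cannot be told apart, and this holds for every level below.

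Human EGFR (transcript ENST00000275493.7, the transgene product that the siRNA is directed at) was lower in every CMV-siRE library than in any CMV-scrR library. It had 890, 452, 718 and 1324 scaled read counts in CMV-siRE 1 to 4, against 2767, 1992, 4025 and 3215 in CMV-scrR 1 to 4. The highest CMV-siRE library, replicate 4, lay below the lowest CMV-scrR library, replicate 2. The means were 846 ± 366 with CMV-siRE and 3000 ± 850 with CMV-scrR (SD, n = 4 each), so that CMV-siRE stood at 28.2% of CMV-scrR. The difference of -1.88 ± 0.38 (log2, SE) did not pass the threshold of 0.05 over all genes (limma adjusted p = 0.055), and the two-sided exact permutation p was 0.0286.

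With the non-mitochondrial total, human EGFR had 1030, 478, 474 and 1304 in the CMV-siRE libraries and 2642, 1979, 2822 and 2368 in the CMV-scrR libraries. The gap narrowed to a level of 33.5% of CMV-scrR and the SD within CMV-scrR was 367, smaller than the 850 as deposited. The groups again did not overlap, and the difference of -1.71 did not pass (limma adjusted p = 0.0789, exact permutation p = 0.0286). By the nuclear total it was -1.88 (adjusted p = 0.0619), and by the full column total -1.40 (adjusted p = 0.18), with no overlap in either. Without CMV-siRE 1, the library that stood apart, the difference was as large, at -1.94 (adjusted p = 0.133, with 1 library fewer).

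Human EGFR was also set against epithelial transcripts, since the transgene is studied in an epithelial tumour. Summed over Epcam, Krt8, Krt18 and Cdh1, genes of epithelial adhesion and keratin filaments that were chosen after the values were seen, the CMV-siRE libraries had 10440, 8604, 8450 and 7914 and the CMV-scrR libraries 4124, 2238, 6194 and 6083. The sum was higher in every CMV-siRE library, and the keratins carried it: Epcam had 671, 730, 237 and 544 with CMV-siRE and 406, 184, 396 and 341 with CMV-scrR, and Cdh1 likewise overlapped between groups. Relative to that sum, human EGFR was 8.53%, 5.25%, 8.49% and 16.7% with CMV-siRE and 67.1%, 89.0%, 65.0% and 52.8% with CMV-scrR. The ratio is a description with no test, because its 2 parts were each without overlap, in opposite directions. Other epithelial lists were divided. The alveolar type 2 list lay in the direction of the sum, with a median of 1.25 and 17 of 18 members above 0. Medians were -1.29 for club cells, -0.97 for ciliated cells and 0.07 for alveolar type 1 cells. The part of epithelial content in the EGFR result was not tested. Mouse Egfr, the endogenous gene, had 18.9, 50.9, 4.3 and 110 with CMV-siRE and 26.4, 25.3, 51.6 and 20.7 with CMV-scrR, a wide spread in CMV-siRE that covered all of CMV-scrR (difference -0.11, limma adjusted p = 0.95).

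**Figure D2:**
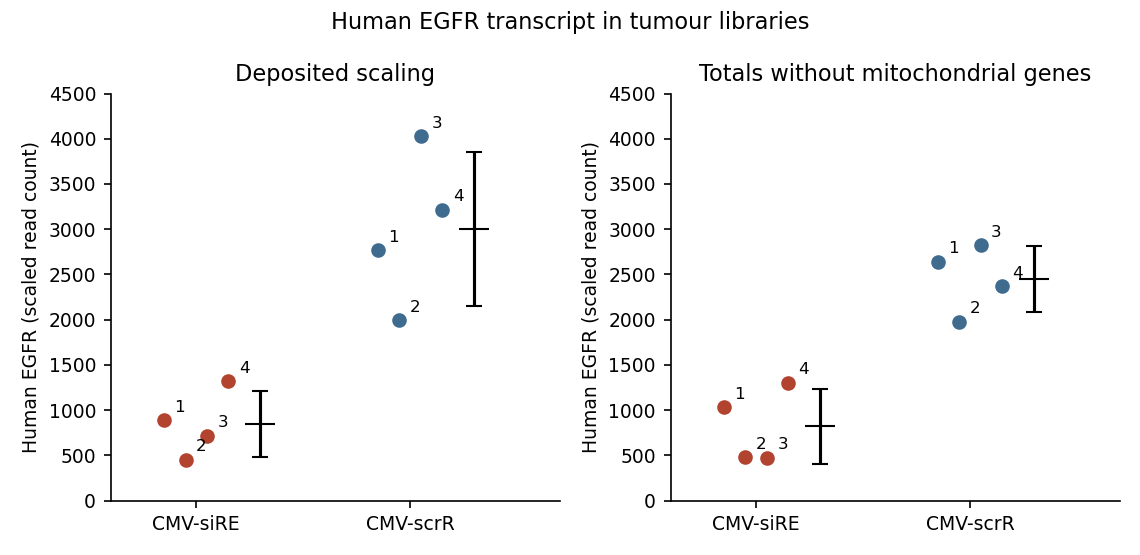
Human EGFR in scaled read counts in each tumour library, with CMV-siRE left of CMV-scrR and the replicate number beside each point, as deposited (left) and scaled to the total without mitochondrial genes (right); crosses give the mean and the bars the SD of 4 libraries. In both panels all CMV-siRE libraries, at most 1324 and 1304, lie below all CMV-scrR libraries, at least 1992 and 1979.

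Across all genes, 36 of 14044 tested differed with CMV-siRE (limma-trend, adjusted p under 0.05), 0.256% of those tested. Of these, 31 were higher (0.221%) and 5 lower (0.0356%), and 26 of the 31 and all 5 have a gene name other than a predicted one. With the non-mitochondrial total 14 genes passed (0.0997%), all of them higher and all among the 36. Before adjustment, 3004 genes had p under 0.05 as deposited. Without CMV-siRE 1, 10 genes passed (0.0712%), 8 higher (0.057%) and 2 lower (0.0142%), and 9 of them were among the 36. All 36 calls rest on a spread shared with the 4 CMV-GE11-siRE libraries: in a limma fit of the 8 compared libraries alone, 0 genes passed, the smallest adjusted p was 0.0634 and 2178 genes had an unadjusted p under 0.05. Without CMV-siRE 4, 1 gene passed. In all 36 the 2 groups of libraries did not overlap as deposited, and in 34 they did not under the non-mitochondrial total.

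**Figure D3:**
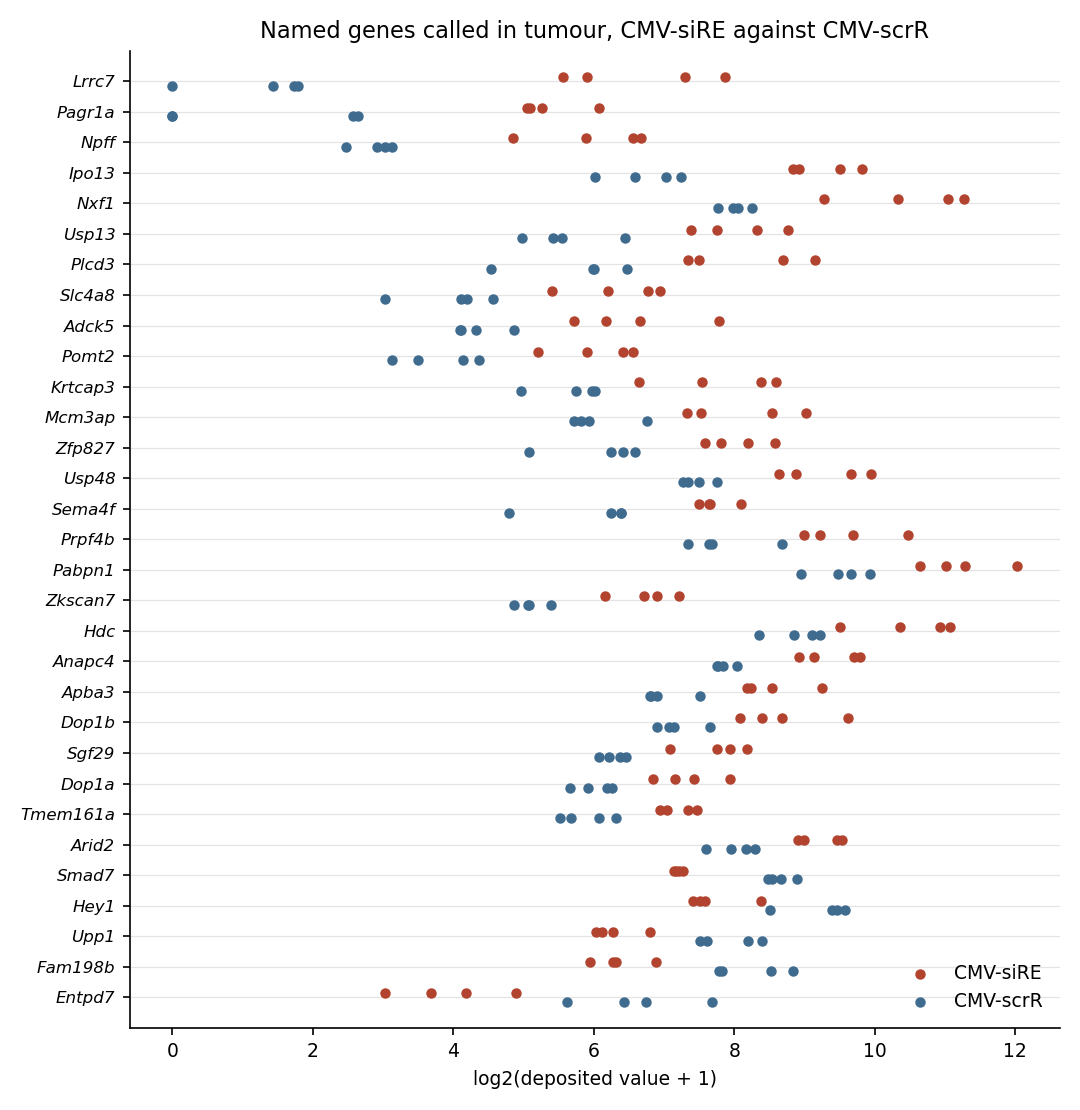
Deposited value of the 31 named genes that passed, on a log2(value + 1) axis, for each of the 4 CMV-siRE libraries (red, upper of each pair) and the 4 CMV-scrR libraries (blue). Genes run from the highest difference, Lrrc7 at 5.42, to the lowest, Entpd7 at -2.68, and no red point reaches the blue points of its gene.

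Genes that move RNA and proteins through the nuclear pore were among those that rose. Ipo13 (chr4:117894486-117914999, minus strand, GRCm38), an importin, had 726, 458, 483 and 904 with CMV-siRE and 151, 63.7, 94.8 and 130 with CMV-scrR. It rose by 2.55 ± 0.29 (log2, SE; limma adjusted p = 0.00687, the smallest of all genes), by 2.72 under the non-mitochondrial total (adjusted p = 0.0153) and by 2.47 without CMV-siRE 1 (adjusted p = 0.0241). Every CMV-siRE library lay well above every CMV-scrR library, and Ipo13 passed in 23 of 27 alternative settings, as many as any named gene. Nxf1 (chr19:8757073-8770922, plus strand), the receptor that carries mRNA out of the nucleus, had 2104, 1284, 622 and 2480 with CMV-siRE and 303, 217, 264 and 251 with CMV-scrR. The CMV-scrR libraries were close together, while the CMV-siRE libraries spread widely with replicate 3 lowest. Nxf1 rose by 2.47 ± 0.38 (adjusted p = 0.0169), and was at 2.65 under the non-mitochondrial total (adjusted p = 0.0606) and at 2.29 without CMV-siRE 1 (adjusted p = 0.0693), where it did not pass. Mcm3ap, which anchors the TREX-2 export complex at the pore, rose by 2.05 ± 0.37 (adjusted p = 0.0414), and did not pass under the non-mitochondrial total (adjusted p = 0.0764) or without CMV-siRE 1 (adjusted p = 0.108).

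Of the 18 members tested in the list of mRNA export and nuclear transport genes, 2 passed, Ipo13 and Nxf1, both higher. Over all genes tested, 0.221% passed upwards. The list was written with earlier results of these data known, so the count is a description and not a test. A gene is called separated here where all 4 CMV-siRE libraries lie above, or all below, all 4 CMV-scrR libraries in both the deposited and the non-mitochondrial scaling, which holds for 2.5% of all genes tested upwards and 0.491% downwards. Each count of separated genes below is to be read beside those shares. In this list 3 members were separated upwards, the third being Thoc1 of the THO complex, which loads export factors onto mRNA, with 441, 246, 282 and 319 with CMV-siRE and 193, 153, 151 and 129 with CMV-scrR (difference 1.02, adjusted p = 0.0591). The list median was 0.01, beside 0.0 for all genes, with 9 members above 0 and 9 below. The importin Kpnb1, for example, had 1087, 1242, 1701 and 804 with CMV-siRE and 1261, 1352, 1333 and 1189 with CMV-scrR.

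Other factors of RNA processing also passed. Pabpn1, which coats the poly(A) tail in the nucleus, had 2065, 1599, 2489 and 4190 with CMV-siRE and 715, 496, 978 and 809 with CMV-scrR, and rose by 1.73 ± 0.29 (limma adjusted p = 0.0299). It rose under the non-mitochondrial total as well (adjusted p = 0.0181) and did not pass without CMV-siRE 1 (adjusted p = 0.0668), and 651 of its exon bases are shared with the overlapping gene Gm20521 on the same strand, and the split of reads between them is uncertain. Prpf4b, a kinase of the spliceosome, rose by 1.76 ± 0.33 (adjusted p = 0.0458). Under the non-mitochondrial total its groups overlapped and it did not pass (adjusted p = 0.0789), nor did it without CMV-siRE 1 (adjusted p = 0.112). In the list of nonsense-mediated decay and CLK-regulated splicing genes none of 18 passed, the median was 0.44 as deposited and 0.28 without CMV-siRE 1, and none was separated in both scalings.

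A further 3 of the genes that rose, set side by side after their values were seen, act on ubiquitin. No list of ubiquitin genes was drawn up, so how many such genes were tested is not given. Over all genes tested, 0.221% passed upwards, and whether ubiquitin genes exceed that share was not tested. Usp13, a deubiquitinase, had 166, 214, 319 and 436 with CMV-siRE and 30.5, 42.0, 86.5 and 45.9 with CMV-scrR. It rose by 2.45 ± 0.35 (limma adjusted p = 0.0111) and by 2.63 under the non-mitochondrial total (adjusted p = 0.0153), and its CMV-siRE libraries other than replicate 1 were the higher ones, so that the difference without CMV-siRE 1 was 2.68 (adjusted p = 0.0241). Usp48, another deubiquitinase, had 991, 398, 469 and 807 with CMV-siRE and 179, 161, 153 and 214 with CMV-scrR and rose by 1.82 ± 0.27 (adjusted p = 0.0137), with an adjusted p of 0.0509 under the non-mitochondrial total and 0.0398 without CMV-siRE 1. Anapc4, a scaffold subunit of the anaphase-promoting complex, had 833, 486, 562 and 889 with CMV-siRE and 229, 214, 263 and 218 with CMV-scrR. It rose by 1.54 ± 0.21 (adjusted p = 0.0111). Anapc4 still passed under the non-mitochondrial total at 1.71 (adjusted p = 0.0345) and without CMV-siRE 1 at 1.43 (adjusted p = 0.0398).

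The 2 named genes that rose most in fold were low in CMV-scrR. Lrrc7, a scaffold protein best known from synapses, had 156, 46.4, 58.6 and 232 with CMV-siRE and 0, 1.71, 2.44 and 2.31 with CMV-scrR, and rose by 5.42 ± 0.70 on the log2(value + 1) scale (limma adjusted p = 0.0111). It was close to undetected in all CMV-scrR libraries, and it passed under the non-mitochondrial total (5.50, adjusted p = 0.0153) and without CMV-siRE 1 (5.21, adjusted p = 0.0398). Pagr1a, a chromatin-associated partner of the KMT2C and KMT2D methyltransferases, had 32.1, 37.5, 33.0 and 66.5 with CMV-siRE and 0, 0, 4.97 and 5.23 with CMV-scrR (4.07 ± 0.65, adjusted p = 0.0235). It passed under the non-mitochondrial total (adjusted p = 0.0181) and did not without CMV-siRE 1 (adjusted p = 0.0693). It shares 1412 exon bases with Gm42742 and 347 with Pagr1b on the same strand and is uncertain. Npff, a neuropeptide precursor, had 92.9, 27.9, 58.0 and 101 with CMV-siRE and 7.13, 4.55, 6.55 and 7.72 with CMV-scrR (3.11 ± 0.42, adjusted p = 0.0111), and shares 327 exon bases with Gm28047 on the same strand.

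Chromatin and transcription factors that passed were Arid2, a subunit of the PBAF remodelling complex, at 1.22 ± 0.22 with 708, 507, 478 and 737 with CMV-siRE and 248, 193, 312 and 286 with CMV-scrR, Sgf29 of the SAGA complex at 1.46 ± 0.27, and the zinc finger genes Zfp827 at 1.96 ± 0.34 and Zkscan7 (ENSMUSG00000063488.6) at 1.64 ± 0.28 (limma adjusted p between 0.0325 and 0.0427). Under the non-mitochondrial total Zfp827 passed (adjusted p = 0.0181), while Arid2, Sgf29 and Zkscan7 did not (adjusted p = 0.0723, 0.0606 and 0.0764), and none of these genes passed without CMV-siRE 1 (adjusted p between 0.073 and 0.118). Hdc, which makes histamine from histidine, had 1953, 729, 2149 and 1317 with CMV-siRE and 593, 327, 461 and 552 with CMV-scrR and rose by 1.59 ± 0.30 (adjusted p = 0.049) and by 1.76 under the non-mitochondrial total (adjusted p = 0.0345), and did not pass without CMV-siRE 1 (adjusted p = 0.136). The enzyme and membrane genes Plcd3, a phospholipase C, Slc4a8, a bicarbonate transporter, Adck5, Pomt2, which adds mannose to proteins, and Krtcap3 rose by 2.42, 2.35, 2.24, 2.24 and 2.12, and Sema4f, Apba3, Dop1b, Dop1a and Tmem161a by 1.77, 1.54, 1.51, 1.33 and 1.31. Of these genes Pomt2 alone passed under the non-mitochondrial total (adjusted p = 0.0318), the others lay between 0.0606 and 0.0809, and none passed without CMV-siRE 1 (adjusted p between 0.0693 and 0.136). On the same strand, Adck5 shares 307 exon bases with 5730521K06Rik, Zfp827 161 with Gm45728, Arid2 92 with Gm25397 and Apba3 91 with Mir3057. On the opposite strand, Dop1a shares 1270 with Pgm3, Zkscan7 1043 with A530083I20Rik, Pomt2 465 with Gstz1 and Dop1b 443 with 2310043M15Rik. The counter is not named, so whether reads of the 2 strands were told apart is not known. Of the 26 named genes that rose, CMV-siRE 1 was the highest library in 12 and CMV-siRE 4 in 12, and the lowest CMV-siRE library was replicate 2 in 12 and replicate 3 in 12. CMV-siRE 1 and 4 carried the upper end of most of these differences and CMV-siRE 2 and 3 the lower end.

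The 5 genes that fell hold 2 regulators of signalling. Smad7, the inhibitory SMAD that shuts off TGF-beta receptors and is itself switched on by TGF-beta, had 147, 154, 143 and 140 with CMV-siRE and 404, 355, 475 and 370 with CMV-scrR. Its CMV-siRE libraries were close together and all below the CMV-scrR libraries. It fell by 1.45 ± 0.20 (log2, SE; limma adjusted p = 0.0111), with the same -1.45 without CMV-siRE 1 (adjusted p = 0.0398), and was at -1.27 under the non-mitochondrial total (adjusted p = 0.0734). Hey1, a transcriptional repressor that Notch and BMP signals switch on in vessels, had 170, 334, 181 and 190 with CMV-siRE and 706, 765, 669 and 362 with CMV-scrR (-1.51 ± 0.29, adjusted p = 0.049). Its highest CMV-siRE library, replicate 2, was just under its lowest CMV-scrR library, replicate 4, and under the non-mitochondrial total the groups overlapped (-1.34, adjusted p = 0.104). Without CMV-siRE 1 it did not pass (adjusted p = 0.133).

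Upp1, which splits uridine into uracil and ribose phosphate, had 68.4, 110, 76.7 and 64.4 with CMV-siRE and 181, 293, 335 and 194 with CMV-scrR (-1.62 ± 0.28, limma adjusted p = 0.0377; 0.108 without CMV-siRE 1). Entpd7, a nucleotide-cleaving enzyme of intracellular membranes, had 28.6, 17.1, 11.8 and 7.16 with CMV-siRE and 85.2, 106, 205 and 48.2 with CMV-scrR (-2.68 ± 0.47, adjusted p = 0.0384). Without CMV-siRE 1 Entpd7 was at -2.99 (adjusted p = 0.0398). Fam198b was at -1.89 ± 0.30 (adjusted p = 0.0235, and 0.0693 without CMV-siRE 1). With genes on the opposite strand, Fam198b shares 711 exon bases (Gm36569) and Entpd7 444 (Cox15). None of the 5 passed under the non-mitochondrial total (adjusted p between 0.0682 and 0.104), while 4 of them were separated in both scalings, all but Hey1.

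The EGFR system was followed by role. Among its ligands none of 8 tested passed, 2 were separated upwards and none downwards, 7 were above 0, and the median difference was 1.10 as deposited, 1.27 under the non-mitochondrial total and 0.96 without CMV-siRE 1, beside 0.0, 0.18 and 0.01 for all genes. The share separated upwards over all genes tested was 2.5%. Tgfa, which encodes TGF-alpha, had 162, 147, 195 and 155 with CMV-siRE and 91.7, 81.5, 87.6 and 108 with CMV-scrR (0.83 ± 0.22, limma adjusted p = 0.0746). Ereg, which encodes epiregulin, had 224, 219, 322 and 479 with CMV-siRE and 187, 0, 195 and 145 with CMV-scrR (adjusted p = 0.247), where the library listed at 0 sets the size of the fitted difference. Areg, which encodes amphiregulin, had 516, 436, 112 and 835 with CMV-siRE and 136, 8.63, 192 and 214 with CMV-scrR, and overlapped in CMV-siRE 3.

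The partner receptors were higher on average and did not pass. Erbb2 had 685, 316, 106 and 510 with CMV-siRE and 128, 49.2, 79.5 and 103 with CMV-scrR (1.95 ± 0.46, limma adjusted p = 0.0649), with CMV-siRE 3 within the range of CMV-scrR. Erbb3, which lacks a strong kinase of its own, had 650, 402, 173 and 305 with CMV-siRE and 167, 66.1, 136 and 271 with CMV-scrR (1.26 ± 0.43, adjusted p = 0.12). Of the 16 bypass receptor tyrosine kinases none passed and 1 was separated, Met, the receptor of hepatocyte growth factor, with 527, 164, 152 and 179 with CMV-siRE and 97.3, 44.6, 115 and 79.3 with CMV-scrR (1.46 ± 0.39, adjusted p = 0.0752). The median of that list was -0.05, with 8 members above 0 and 8 below. In Met, Erbb2 and Erbb3 the highest CMV-siRE library was replicate 1, the library that stood apart, and the differences without it were 1.04, 1.60 and 0.96.

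Most genes that ERK signalling switches on lay above 0. Of 16 members of the list of MAPK feedback and ETS target genes tested, none passed, 14 were above 0, 2 were separated upwards and none downwards, and the median was 0.62 as deposited and 0.70 without CMV-siRE 1. Over all genes tested 2.5% were separated upwards. Phlda1 had 1100, 1416, 1264 and 1398 with CMV-siRE and 425, 175, 632 and 765 with CMV-scrR (1.56 ± 0.35, limma adjusted p = 0.0619). Spry2, an inhibitor that receptor tyrosine kinases induce against themselves, had 397, 365, 447 and 382 with CMV-siRE and 91.7, 114, 269 and 322 with CMV-scrR (1.19 ± 0.35, adjusted p = 0.095). In both genes the CMV-siRE libraries were close together and CMV-scrR 1 and 2 were the lowest. Dusp6, the ERK phosphatase often read as a gauge of ERK activity, had 1208, 1318, 1577 and 908 with CMV-siRE and 1256, 890, 1772 and 1151 with CMV-scrR, a difference of 0.0 ± 0.23 (adjusted p = 1.0), and cyclin D1 (Ccnd1) had 2538, 4798, 5553 and 2327 with CMV-siRE and 4019, 5643, 5953 and 3968 with CMV-scrR (-0.44 ± 0.34, adjusted p = 0.468). Both overlapped between groups.

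The signalling chain between receptor and nucleus showed 1 separated gene downwards. Ptpn11, the phosphatase SHP2 that couples receptors to RAS, had 556, 1178, 1272 and 1126 with CMV-siRE and 1713, 2355, 1812 and 1794 with CMV-scrR (-0.95 ± 0.26, limma adjusted p = 0.0766). The lowest library was CMV-siRE 1, and without it the difference was -0.68. The adaptor list as a whole had a median of -0.09 over 15 members, the RAS, RAF, MEK and ERK kinases -0.09 over 12, and the PI3K, AKT and mTOR genes 0.09 over 21, and none of their members passed. Errfi1, a direct inhibitor of EGFR family kinases, was at 1.21 ± 0.38 (adjusted p = 0.111), and Irs2, an adaptor of the insulin receptor, was separated upwards with 196, 152, 298 and 236 with CMV-siRE and 93.3, 143, 121 and 142 with CMV-scrR.

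**Figure D4:**
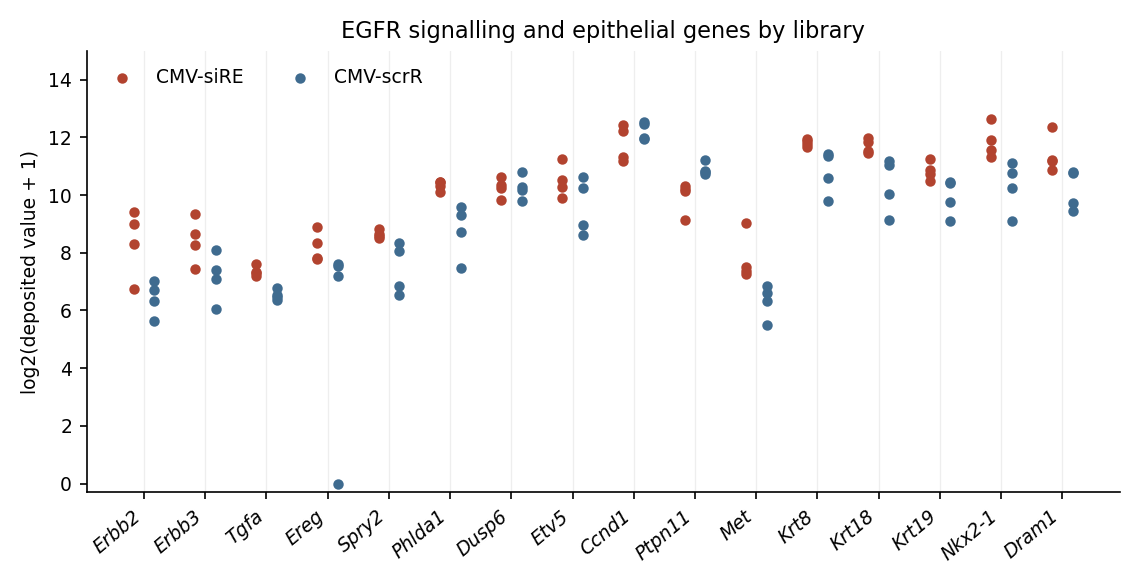
Deposited values on a log2(value + 1) axis of EGFR system genes and epithelial genes in each of the 4 CMV-siRE libraries (red) and the 4 CMV-scrR libraries (blue). Phlda1, Spry2, Tgfa, Krt8, Krt18 and Krt19 have all red points above all blue points, Ptpn11 all below, and Dusp6 and Ccnd1 overlap; none of the genes shown passed in limma.

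Krt8, Krt18 and Krt19, the keratin filament proteins of simple epithelia, were the 3 separated members of the list of epithelial and mesenchymal state genes, in which none of 13 passed. All 3 were separated upwards, beside 2.5% of all genes tested. Krt8 had 3767, 3510, 3930 and 3256 with CMV-siRE and 1545, 897, 2601 and 2712 with CMV-scrR (1.03 ± 0.30, limma adjusted p = 0.094). Krt18 had 4002, 2802, 3638 and 2921 with CMV-siRE and 1057, 555, 2100 and 2309 with CMV-scrR (1.35 ± 0.36, adjusted p = 0.0766). As in Spry2 and Phlda1, CMV-scrR 1 and 2 were the low libraries. Vim, the filament gene of mesenchymal cells, had 2085, 7629, 4350 and 4655 with CMV-siRE and 7195, 10468, 7709 and 5862 with CMV-scrR and overlapped between groups (-0.85 ± 0.34, adjusted p = 0.176).

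The lung part of the tissue label was checked against markers of alveolar type 2 cells. Normal lung holds these cells too, so the check cannot tell tumour from normal lung. Sftpc, the surfactant protein of these cells, was abundant in all 8 libraries, with 597844, 91550, 124048 and 154546 with CMV-siRE and 35101, 36788, 104713 and 86921 with CMV-scrR. The groups overlapped and CMV-siRE 1 was far above the rest (1.62 ± 0.65, limma adjusted p = 0.175; 1.04 without CMV-siRE 1). Of 18 members tested none passed, 17 were above 0, 2 were separated upwards and none downwards, and the median was 1.25 as deposited, 1.43 under the non-mitochondrial total and 0.88 without CMV-siRE 1. The share separated upwards over all genes tested was 2.5%. Nkx2-1, the transcription factor of lung epithelial identity, was separated, with 6381, 2554, 3023 and 3887 with CMV-siRE and 1214, 543, 1755 and 2230 with CMV-scrR (1.55 ± 0.38, adjusted p = 0.066). Dram1 was the other, with 5278, 1850, 2377 and 2341 with CMV-siRE and 837, 690, 1792 and 1738 with CMV-scrR. The summed level of the list ran between 148363 and 776200 with CMV-siRE and between 74503 and 165198 with CMV-scrR, so that the groups overlapped. Alveolar type 1 genes had a median of 0.07 over 13 members.

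Most endothelial genes lay below 0. Of 17 members 16 were below 0, none passed, 1 was separated downwards, and the median was -0.62 as deposited, -0.44 under the non-mitochondrial total and -0.65 without CMV-siRE 1. Sox17, a transcription factor of arterial endothelium, had 188, 208, 161 and 97.8 with CMV-siRE and 338, 251, 807 and 395 with CMV-scrR (-1.36 ± 0.36, limma adjusted p = 0.0752). Erg, a transcription factor of all endothelium, had 268, 1265, 535 and 633 with CMV-siRE and 2535, 2804, 2157 and 1268 with CMV-scrR (-1.85 ± 0.40, adjusted p = 0.0573), and met at its edges, with CMV-siRE 2 at 1265 and CMV-scrR 4 at 1268. Hey1, which fell, is expressed in the same cells. The summed endothelial list ran between 4233 and 10595 with CMV-siRE and between 6284 and 16773 with CMV-scrR, and its part in the Hey1 result was not tested.

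No member of the club cell, ciliated cell, fibroblast, smooth muscle, macrophage or T cell lists passed or was separated. The club and secretory cell list had a median of -1.29 with 0 of 9 members above 0, which was -0.72 without CMV-siRE 1, and its main secretory gene Scgb1a1 had 615, 17676, 3108 and 8096 with CMV-siRE and 15067, 25886, 5000 and 5084 with CMV-scrR. Medians were -0.97 for ciliated cells, -1.15 for smooth muscle and pericytes, -0.45 for fibroblasts and matrix and -0.49 for macrophages. Blood and heart content stood out in CMV-siRE 4, where the erythroid list summed to 258196, above the 45408 reached with CMV-scrR, the neutrophil list to 11198 against at most 1847 with CMV-scrR, and the heart gene Myh6 was at 1150 against at most 151. Ltf, a neutrophil granule gene, was separated downwards at low values, with 4.53, 24.6, 59.1 and 39.2 with CMV-siRE and 129, 144, 130 and 65.9 with CMV-scrR.

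**Figure D5:**
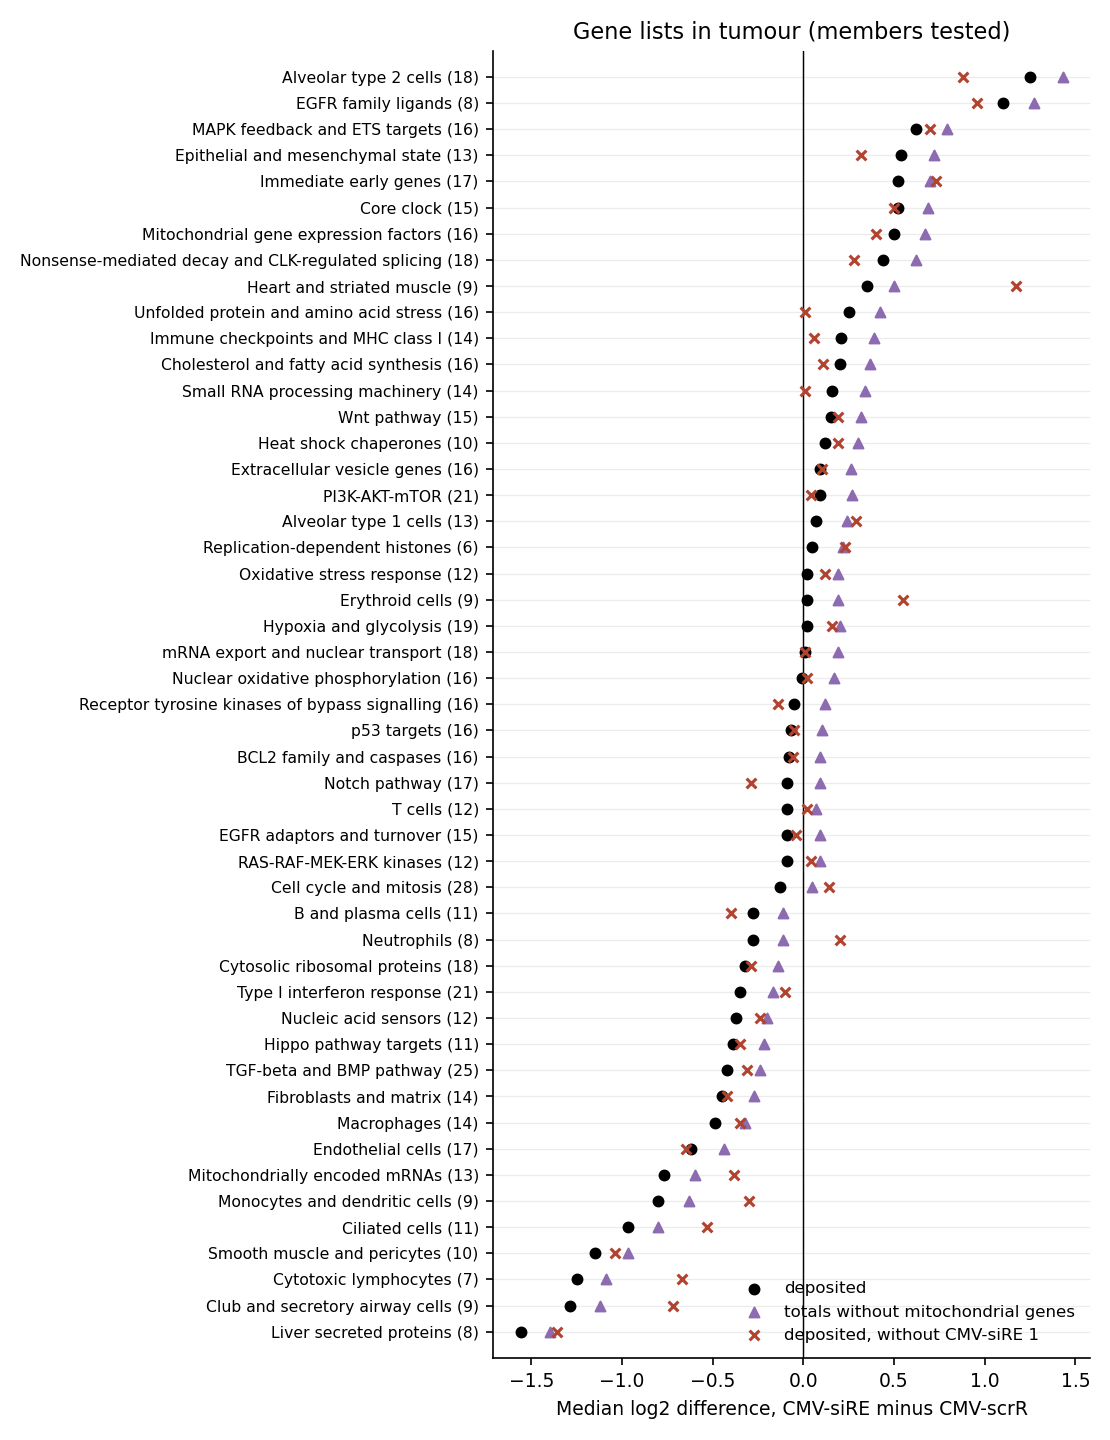
Median log2 difference, CMV-siRE minus CMV-scrR, over the members tested of each gene list with at least 5 such members (their number in brackets), as deposited (circles), under the total without mitochondrial genes (triangles) and as deposited without CMV-siRE 1 (crosses). The alveolar type 2 list at 1.25 and the EGFR ligand list at 1.10 are the highest, and the liver list at -1.56 and the club cell list at -1.29 the lowest; over all genes the median is 0.0, 0.18 and 0.01.

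The machinery that an siRNA passes through held 1 separated gene, which did not pass. Dicer1, the enzyme that cuts double-stranded RNA to size, had 496, 381, 404 and 550 with CMV-siRE and 215, 160, 339 and 202 with CMV-scrR (1.04 ± 0.23, limma adjusted p = 0.0573; 0.99 without CMV-siRE 1). It was the only separated gene of the 14 small RNA processing genes tested, whose median was 0.16. The Argonautes Ago1 and Ago2, which hold the guide strand, were at -0.34 ± 0.20 and -0.28 ± 0.20 and overlapped between groups. Of 16 extracellular vesicle genes none passed or was separated and the median was 0.09.

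Genes of the innate response to foreign nucleic acid lay mostly below 0 and did not pass. None of 21 type I interferon response genes passed or was separated, 16 were below 0, and the median was -0.35 as deposited and -0.10 without CMV-siRE 1. Irf7, which amplifies the response, had 169, 500, 433 and 362 with CMV-siRE and 306, 2422, 311 and 529 with CMV-scrR, and CMV-scrR 2 was the library that stood high. Of 12 nucleic acid sensors tested none passed, and the median was -0.37.

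Growth, death and stress lists held few separated genes. None of 28 cell cycle and mitosis genes passed or was separated, and their median was -0.13 as deposited and 0.14 without CMV-siRE 1. None of 16 p53 target genes passed, and Btg2, an antiproliferative gene, was the separated one, with 795, 925, 1143 and 2424 with CMV-siRE and 714, 628, 615 and 778 with CMV-scrR. The 16 genes of the BCL2 family and caspases had a median of -0.08 with none separated. In the oxidative stress list 2 of 12 were separated upwards, Gclc, which makes the precursor of glutathione, with 3452, 1623, 2092 and 1935 with CMV-siRE and 1144, 483, 1365 and 1262 with CMV-scrR (1.14 ± 0.32, limma adjusted p = 0.0852), and Nfe2l2, the factor that switches such genes on. Over all genes tested 2.5% were separated upwards. Srebf1, which drives fatty acid synthesis genes, had 1132, 225, 226 and 710 with CMV-siRE and 125, 147, 117 and 94.1 with CMV-scrR (1.91 ± 0.44, adjusted p = 0.0649), the separated member of 16 lipid synthesis genes.

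The TGF-beta and BMP list, to which Smad7 belongs, was spread. Of 25 members 1 fell and none rose, 1 was separated upwards and 1 downwards, 20 were below 0, and the median was -0.42 as deposited and -0.24 under the non-mitochondrial total. Bmp4, a ligand that shapes lung epithelium, had 1831, 821, 649 and 700 with CMV-siRE and 318, 138, 249 and 460 with CMV-scrR (1.77 ± 0.36, limma adjusted p = 0.055; 1.43 without CMV-siRE 1). Eng and Bmpr2, receptors of endothelium among other cells, were at -1.13 ± 0.44 and -1.02 ± 0.40 (adjusted p = 0.164 and 0.166) and overlapped between groups. In the Notch list Hey1 was the member that fell, Hes1, another Notch target, was at 0.47 ± 0.24 (adjusted p = 0.264), and the median of 17 members was -0.09.

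The mitochondrial genes themselves did not pass. All 13 mitochondrial mRNAs were below 0, with a median of -0.77 as deposited, -0.60 under the non-mitochondrial total and -0.38 without CMV-siRE 1, and none was separated. mt-Co1, a subunit of complex IV, had 1996322, 4654839, 12301638 and 5445595 with CMV-siRE and 6857421, 4994099, 9512215 and 9972137 with CMV-scrR, so that the highest and the lowest of the 8 libraries were both CMV-siRE. Nuclear genes of oxidative phosphorylation had a median of -0.01 over 16 members. The 16 nuclear factors of mitochondrial gene expression tested had a median of 0.50, with a summed level of 2267 to 3038 with CMV-siRE and 1900 to 2141 with CMV-scrR, 2 sets of libraries that did not overlap as deposited. Relative to the non-mitochondrial total the sums overlapped. CMV-siRE 3, with 2356 on a total of 11.76 M, then lay below CMV-scrR 1, with 2141 on 8.14 M. They overlapped relative to the nuclear total as well. None of the 16 genes passed, and none was separated in both scalings.

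Beyond the calls, 1093 genes (7.78% of those tested) had no overlap between the groups as deposited, 568 upwards (4.04%) and 525 downwards (3.74%). Under the non-mitochondrial total there were 874 (6.22%), 788 upwards (5.61%) and 86 downwards (0.612%), so the balance moved with the scaling, and 420 genes (2.99%) were separated in both, 351 upwards (2.5%) and 69 downwards (0.491%). Among separated genes that did not pass, those with a mean of at least 100 over the 12 tumour libraries were ranked by difference. The ranking leaves out human EGFR, given above, and genes with predicted names. The 8 highest include Atp13a4, Rbpjl, Slc26a9, Cacna1c and Pla2g4f. Slc26a9, a chloride channel of airway epithelium, had 2505, 434, 342 and 1254 with CMV-siRE and 149, 22.6, 272 and 198 with CMV-scrR (2.81 ± 0.72, limma adjusted p = 0.0705), and Cacna1c, a subunit of L-type calcium channels, had 878, 221, 139 and 211 with CMV-siRE and 70.3, 18.4, 43.3 and 75.1 with CMV-scrR (2.57 ± 0.52, adjusted p = 0.055). Atp13a4 (4.01 ± 0.97), Rbpjl (2.92 ± 0.63) and Pla2g4f (2.54 ± 0.61) likewise had their highest value in CMV-siRE 1, and without that library were at 3.13, 2.41 and 2.05.

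The 8 lowest in the same ranking, with its limit of a mean of 100 over the 12 libraries, are Tiam1, Rasgrp3, Arrb1, Mef2c, Ablim3, Zfp367, Rflnb and Sox17. Tiam1, an activator of the GTPase RAC, had 71.9, 146, 54.4 and 103 with CMV-siRE and 177, 410, 313 and 287 with CMV-scrR (-1.68 ± 0.33, limma adjusted p = 0.0521). Rasgrp3, an activator of RAS and RAP, had 126, 256, 306 and 179 with CMV-siRE and 591, 1118, 481 and 543 with CMV-scrR (-1.65 ± 0.33, adjusted p = 0.055). Arrb1, an arrestin that ends receptor signalling, had 546, 855, 1161 and 368 with CMV-siRE and 1816, 2142, 1863 and 1492 with CMV-scrR (-1.44 ± 0.32, adjusted p = 0.0573). In these 3 genes every CMV-siRE library lay below every CMV-scrR library, and the differences without CMV-siRE 1 were -1.59, -1.41 and -1.34. Mef2c, a transcription factor of muscle, endothelium and lymphocytes, was at -1.47 ± 0.36, the actin-binding Ablim3 at -1.81 ± 0.37, Zfp367 at -1.48 ± 0.42 and Rflnb at -1.28 ± 0.30, none of which passed.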

How the data were processed

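Total RNA had been extracted with TRIzol and made into TruSeq libraries, per the labels' protocols. The authors deposited a tumour table of signal values, gene counts divided by size factors; the submitters' processing notes name DESeq2 without a version or role, while the aligner, counter, build and annotation are not named there or in the labels. Between 50.3% and 63.8% of low values were whole multiples of a library's smallest step (within 0.1 of a step), so reads were not recovered. Column total over that step gives approximate depths of 15.1 to 16.9 M reads with CMV-siRE and 12.2 to 16.1 M with CMV-scrR. The spread between libraries measures precision. Symbols came from GENCODE M21 (35968 of 36048 rows).

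All 12 tumour libraries entered a limma 3.58.1 (R 4.3.3) trend fit on log2(value + 1), 1 mean per circuit, testing genes of at least 10 in at least 4 libraries, with Benjamini-Hochberg adjustment at 0.05. Values were also rescaled to totals without the 13 mitochondrial genes, without the 15 genes sharing 50 bases with them (added after seeing the data), and over all genes. The script was tested on simulated data. Single measures had two-sided exact permutation tests (scipy 1.17.1). Members and lists were chosen with earlier results of these data known. Named were human EGFR, called genes with a name, the 8 largest separated genes each way with a mean of at least 100, and from each list the 3 most abundant, called or separated members; the text gives part of these.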

Additional observations from a re-analysis of the deposited data

Results flagged for a closer look

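Among the 4 libraries of a group, 8 of 98 groups checked had a highest or lowest library apart from its neighbour. There the gap took a larger share of the group's range than the critical value of Dixon's test for 4 values. Chance alone exceeds that value in about 0.05 of unselected groups. Nearly all groups here are genes picked as called or separated in the same 8 libraries, so that rate does not apply directly to them. Gaps are on the log2(value + 1) scale, while the values beside them are as deposited. In CMV-siRE, Hey1 was high in replicate 2 (334 against 170 to 190 in the others, gap 0.834). In CMV-scrR, replicate 2 was the library apart in most of the rest. It was high in Ablim3 (1656 against 762 to 767, gap 0.991) and Zfp367 (618 against 312 to 350, gap 0.833). It was low in Atp13a4 (1.67 against 29.9 to 46.4, gap 0.852), Ereg (listed at 0 against 145 to 195, gap 0.944) and Sema4f (26.8 against 74.8 to 82.8, gap 0.909). Replicate 1 was high in Apba3 (181 against 110 to 119, gap 0.852), and replicate 3 was low in Mef2c (222 against 332 to 348, gap 0.897).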

How the results depend on the processing

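Human EGFR kept its direction in all 27 alternative settings. It passed with the replicate number as a block (-1.88, adjusted p = 0.036) and with Ddx3y as a covariate (-1.85, adjusted p = 0.0196), and did not under any other scaling, pseudocount or filter. Leaving out 1 library gave -2.14 to -1.62 as deposited and -1.98 to -1.49 under the non-mitochondrial total; it passed without CMV-siRE 2 (-1.62), CMV-siRE 3 (-1.84) or CMV-scrR 4 (-1.84) as deposited, and without CMV-siRE 3 (-1.49) under the non-mitochondrial total.

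The 36 calls were far less steady. The count was 14 under the non-mitochondrial total, 23 by the nuclear total, 11 by the column total, 16 without a filter on low values, 15 with library weights, 9 by the nuclear total without CMV-siRE 1, and 0 when the fit held just the 8 compared libraries, where 2178 genes had an unadjusted p under 0.05 and the smallest adjusted p was 0.0634. It was 1100 with Ddx3y as a covariate (590 higher, 510 lower), chosen after seeing the data. Replicate numbers were shared between groups. The deviations of same-numbered libraries correlated at 0.06, 0.22, 0.14 and -0.07, and those of differently numbered libraries at -0.23 to 0.13. Whether the numbers pair the libraries was not tested, and the labels do not say so. With the replicate block the count was 190, or 14 with the block and the non-mitochondrial total.

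Leaving out 1 library gave 1 to 798 calls as deposited and 0 to 1807 under the non-mitochondrial total. As deposited the count was 10 without CMV-siRE 1, 614 without CMV-siRE 2, 798 without CMV-siRE 3, 1 without CMV-siRE 4, 13 without CMV-scrR 2, 14 without CMV-scrR 3 and 285 without CMV-scrR 4. The cause was not tested. Without CMV-siRE 4 the call that passed was 1 of the 36. Of the named calls, Ipo13 and Usp13 passed in 23 of 27 settings, Lrrc7 in 22, Npff in 21 and Hey1 in 5.

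The count of genes with no overlap was 728 by the column total (715 higher, 13 lower). It ran between 1240 and 2438 with 1 library left out, where fewer libraries can only raise it. A pseudocount cannot change the count. The difference in mitochondrial share ran between -12.9 and -3.48 points.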
